A study of Arabidopsis with 26 samples.

Results

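SWI3C was set beside BRM in ChIP-seq peak lists of Arabidopsis seedlings, taking each line from the name of its deposited list. The members are 5 of 26 libraries: the 1 list named for SWI3C-GFP, 2 lists named BRM-GFP brm-1 syd-5 and 2 named BRM-GFP brm-1. The study tagged members of the plant SWI/SNF chromatin remodelling family with green fluorescent protein (GFP) and mapped where each sits in the genome. All plants were 14-day-old seedlings on MS medium, and every library was precipitated with the same antibody against GFP. BRM-GFP brm-1 syd-5 plants carry the BRM fusion together with the mutant alleles brm-1 of BRM and syd-5 of SYD, and BRM-GFP brm-1 plants carry the fusion and brm-1 alone, so both BRM lines share the brm-1 allele. The list name of SWI3C-GFP states no mutant allele, and the labels name neither the promoter of a transgene nor the number of independent lines. Nothing in the labels says whether the replicates came from separate cultures, so p-values measure only the spread between these libraries.

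SWI/SNF complexes use the energy of ATP to slide or evict nucleosomes, which changes how easily transcription factors reach DNA. BRM (BRAHMA) is one of the alternative ATPase subunits of these complexes in Arabidopsis, beside SYD (SPLAYED) and MINU1 and MINU2. SWI3C belongs to the SWI3 family of core scaffold subunits, is known to bind BRM, and its mutants resemble brm mutants in growth and fertility.

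Sample label and list name conflict for the SWI3C library. The list is named SWI3C-GFP, while its sample is labelled BCL7A-GFP bcl7a-1, and the library labelled SWI3C-GFP has a list named for a SYD fusion. The same conflict holds for 19 of the 26 libraries, but for none of the 4 BRM libraries. A single peak list of the 26 had a summit inside the SWI3C gene AT1G21700, and it was the list named SWI3C-GFP. That peak spanned positions 7623488 to 7624975 of chromosome 1, with a fold enrichment of 3.45 and a −log10 q of 19.2. It reaches past the end of the gene, and a peak overlapped it, with the summit outside the gene, in 5 of the 11 other lists with organelle peaks (peaks on mitochondrial or plastid DNA), in 2 of the 10 other lists without them and in no BRM list. The BRM gene AT2G46020 had a summit in all 26 lists, so a summit there does not single out the BRM libraries. The −log10 q there was 249 and 274 for BRM-GFP brm-1 syd-5 and 223 and 208 for BRM-GFP brm-1, against at most 157 in the other lists. Fold enrichment there did not set the BRM lists apart, with 6.58 to 7.94 in them and up to 8.63 in the other lists.

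Each list gives, per peak, the authors' fold enrichment over background, their −log10 q (a measure of significance, by which peaks were ranked) and the summit, the position of highest signal. The SWI3C list held 12242 peaks on the 5 nuclear chromosomes, covering 7.79 Mb with a median width of 512 bp. The 4 BRM lists held 15011 to 16058, with median widths of 686 and 698 bp for BRM-GFP brm-1 syd-5 and 735 and 732 bp for BRM-GFP brm-1. The SWI3C list is 1 of 12 lists that also hold organelle peaks, and its widest nuclear peak is 3859 bp. All BRM lists belong to the 14 lists without organelle peaks, whose widest peaks measure 5697 to 22566 bp. The protein and this set of lists therefore cannot be told apart in any difference between SWI3C and BRM. Sequencing depth is unknown, because peak lists hold no read numbers, and a region without a peak was not called rather than shown to be free of the protein. Whole seedlings were used, so occupancy in fewer cells and weaker occupancy in each cell cannot be told apart.

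Most SWI3C peaks lay at BRM peaks. To compare lists of equal size, the 12242 strongest peaks of each BRM list were set against all SWI3C peaks, counting an overlap from 1 bp. SWI3C peaks were overlapped in 85.2% and 86.1% of cases by the BRM-GFP brm-1 syd-5 lists (replicates 1 and 2), and in 86.5% and 85.9% by the BRM-GFP brm-1 lists (replicates 1 and 2). Their mean was 85.9% ± 0.535 (SD, n = 4 BRM lists). Replicates of 1 BRM line overlapped each other in 87.7% to 90.3% of peaks, and lists of the 2 BRM lines in 84.2% to 87.5%. The SWI3C share at BRM thus fell within the range of one BRM line against the other. With an overlap of at least 50% of both intervals required, the mean fell to 44.4%.

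At least 1 of the 4 equal-sized BRM lists overlapped 93.4% of SWI3C peaks, and all 4 overlapped 9366 peaks (76.5%, Wilson 95% interval 75.7% to 77.2%). The SWI3C peaks met by all 4 had a median fold enrichment of 3.03 and a median width of 568 bp. Those met by none numbered 803 (6.56%, interval 6.13% to 7.01%), with a median fold enrichment of 2.31 and a median width of 361 bp. SWI3C peaks that both lists of a single BRM line met, with no peak in either full list of the other line, were few: 32 for BRM-GFP brm-1 syd-5 and 80 for BRM-GFP brm-1. Regions reproducible between replicates numbered 10504 for BRM-GFP brm-1 syd-5 and 10641 for BRM-GFP brm-1. SWI3C peaks lay at reproducible BRM-GFP brm-1 syd-5 regions in 82.1% of cases (81.5% to 82.8%) and at reproducible BRM-GFP brm-1 regions in 83.3% (82.6% to 84.0%).

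In the other direction, the share of BRM peaks that held a SWI3C peak was lower than the share of SWI3C peaks at BRM in each of the 4 lists. It was 74.5% and 74.4% for BRM-GFP brm-1 syd-5 and 73.3% and 73.2% for BRM-GFP brm-1. BRM peaks were wider, and SWI3C peaks covered 42.8% to 48.0% of BRM bases, while 85.8% to 87.2% of SWI3C bases lay in BRM peaks. BRM peaks with a SWI3C peak had median widths of 960 to 1094 bp across the 4 lists, against 491 to 552.5 bp for BRM peaks without one. Between 1110 and 1324 BRM peaks per list held 2 or more SWI3C peaks, and the largest number of SWI3C peaks in 1 BRM peak was 6. The Jaccard index, the bases shared by both lists divided by the bases in either, was 0.445 and 0.430 with BRM-GFP brm-1 syd-5 and 0.402 and 0.406 with BRM-GFP brm-1. It was 0.749 to 0.774 between BRM replicates.

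The share of SWI3C peaks at BRM followed SWI3C peak strength. SWI3C peaks were divided into 10 equal bins of −log10 q, bin 1 being the strongest. The share at BRM peaks was 95.1% ± 0.215 in bin 1, 97.8% ± 0.258 in bin 2 and 97.5% ± 0.371 in bin 3 (SD, n = 4 BRM lists). It was lower from bin to bin after that, with 89.8% ± 0.215 in bin 5, 76.8% ± 0.599 in bin 8 and 65.4% ± 2.45 in bin 10. Bin 1 exceeded bin 10 by 29.6 percentage points, more than the spread between BRM lists in either bin. The highest share was in bin 2, not in the strongest bin. BRM peaks sorted by their own −log10 q gave a steeper course: 99.8% ± 0.103 held a SWI3C peak in bin 1, 82.8% ± 1.79 in bin 5 and 37.3% ± 2.76 in bin 10. Against the full BRM lists the 2 ends of the SWI3C course lay closer, 14.0 points apart. For the library labelled SWI3C-GFP they lay 54.1 points apart.

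**Figure D1:**
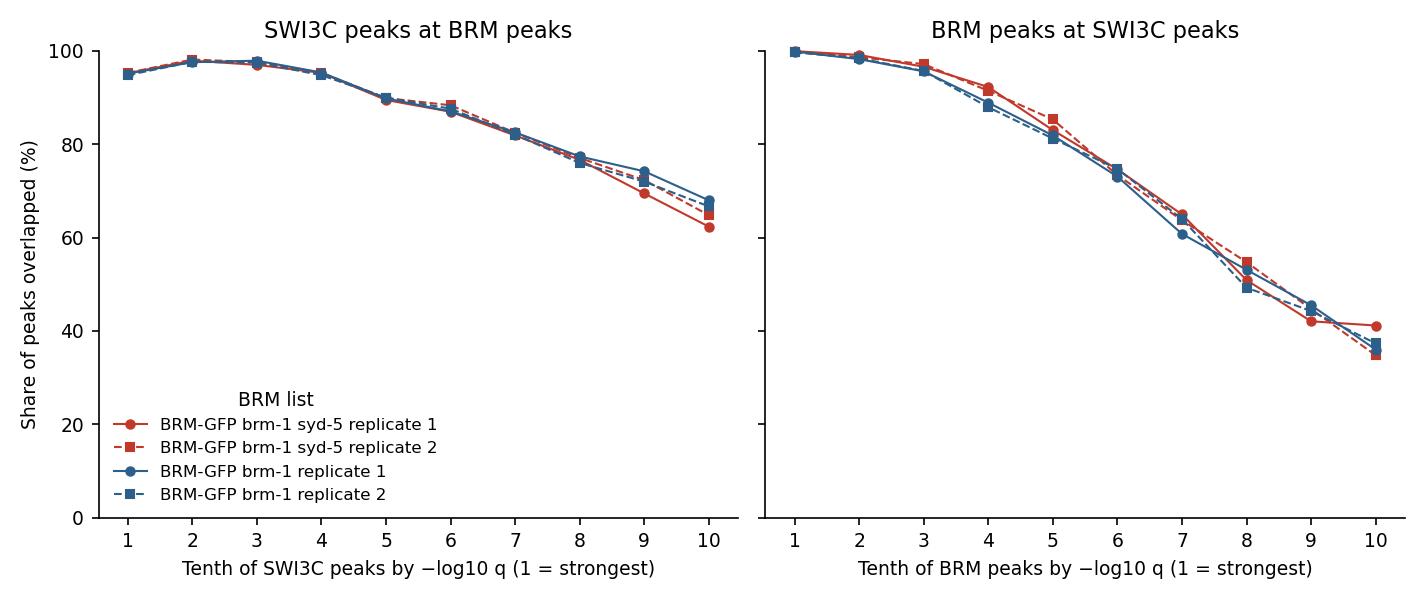
Share of peaks overlapped (%, vertical axes) in 10 equal bins of −log10 q, bin 1 being the strongest, for SWI3C peaks at BRM peaks (left) and BRM peaks at SWI3C peaks (right). Each line is 1 BRM list, red for BRM-GFP brm-1 syd-5 and blue for BRM-GFP brm-1; on the left bin 2 is highest with 97.8% and bin 10 lowest with 65.4%, and on the right the share falls to 37.3% in bin 10.

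Within bin 1, the peaks without BRM were at the very top. None of the 10 SWI3C peaks with the highest −log10 q overlapped a BRM peak in any list, and 57 of the 100 highest did, in each of the 4 lists. These 10 are not particular to SWI3C. All 10 overlapped a peak among the 100 strongest of each of the 11 other lists with organelle peaks. Ranked by fold enrichment instead, 6 of the first 10 and 85 of the first 100 SWI3C peaks had a BRM peak, and the first bin reached 96.7% ± 0.373. The SWI3C peak of highest −log10 q with a BRM peak ranked at place 30, with a −log10 q of 135.

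Strong SWI3C peaks tended to meet strong BRM peaks. Across overlapping peaks, Spearman's rank correlation of −log10 q was 0.524 and 0.522 with BRM-GFP brm-1 syd-5 (10430 and 10540 SWI3C peaks) and 0.437 and 0.438 with BRM-GFP brm-1 (10586 and 10514 SWI3C peaks). Pearson's r of the ranks that the peaks hold in their whole lists was 0.507 and 0.506 with BRM-GFP brm-1 syd-5 and 0.428 and 0.430 with BRM-GFP brm-1. These values describe regions within the same few libraries and carry no p. BRM replicates reached 0.851 to 0.880 and lists of different BRM lines 0.767 to 0.804, so the order of SWI3C peaks was further from that of BRM than any BRM list was from another. By fold enrichment the rank correlation between SWI3C and BRM was 0.374 and 0.372 with BRM-GFP brm-1 syd-5 and 0.297 and 0.295 with BRM-GFP brm-1. Of the SWI3C peaks in bin 1, 54.9% met a BRM peak of bin 1 for BRM-GFP brm-1 syd-5 and 44.8% for BRM-GFP brm-1. SWI3C peaks of bin 10 met a BRM peak of bin 1 in 4.78% of cases for BRM-GFP brm-1 syd-5 and 5.27% for BRM-GFP brm-1.

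**Figure D2:**
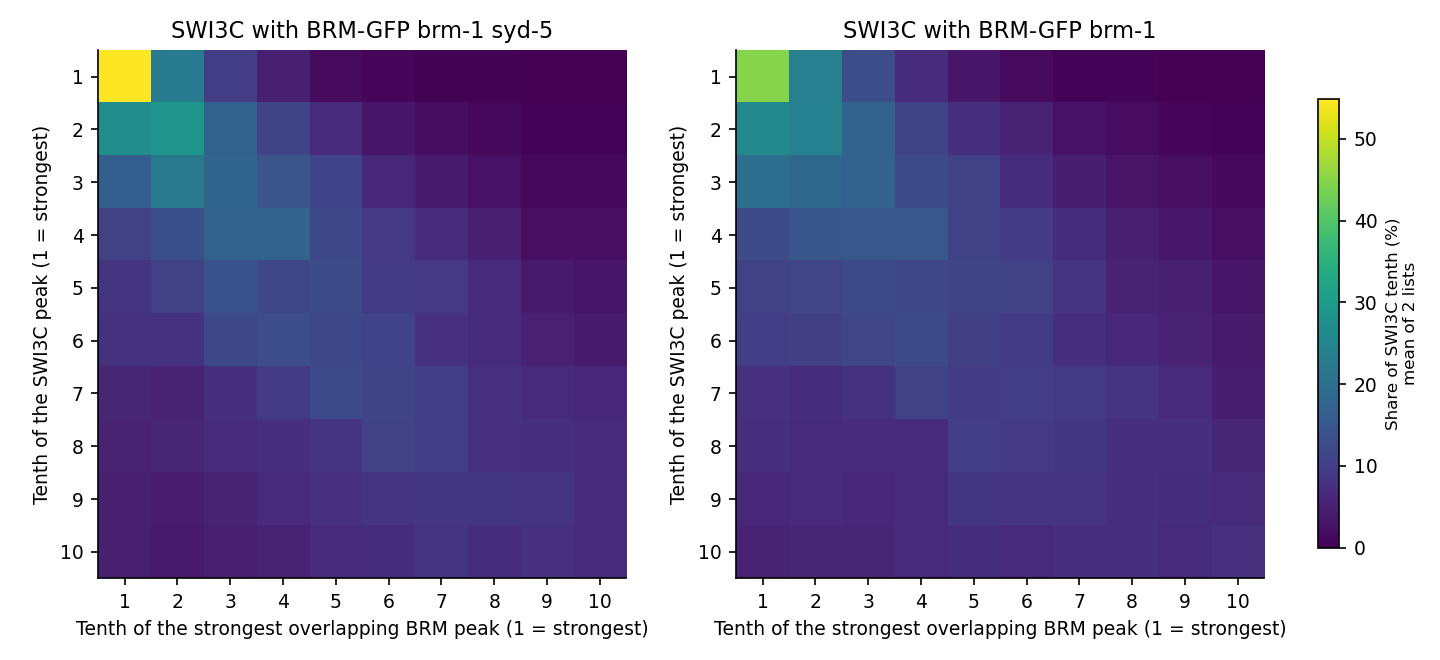
Bin of the strongest overlapping BRM peak (horizontal, 1 = strongest) for SWI3C peaks of each bin (vertical, 1 = strongest at the top), for BRM-GFP brm-1 syd-5 (left) and BRM-GFP brm-1 (right). The colour is the share of each SWI3C bin in %, as the mean of the 2 lists of the line; the corner where both are strongest holds 54.9% on the left and 44.8% on the right.

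SWI3C and BRM summits lay close together, closer in strong peaks than in weak ones. The median distance between the SWI3C summit and the nearest summit of an overlapping BRM peak was 89 and 89 bp for BRM-GFP brm-1 syd-5 and 141.5 and 138 bp for BRM-GFP brm-1. Summits within 100 bp of each other made up 53.6% and 53.4% of overlapping SWI3C peaks for BRM-GFP brm-1 syd-5 and 40.4% and 41.6% for BRM-GFP brm-1. BRM replicates lay 50 to 51 bp apart and lists of different BRM lines 58 to 62 bp, so the SWI3C distances were the larger ones in both lines. In bin 1 of SWI3C strength the median was 41.5 bp to BRM-GFP brm-1 syd-5 and 69 bp to BRM-GFP brm-1. In bin 10 it was 190 bp to BRM-GFP brm-1 syd-5 and 237.75 bp to BRM-GFP brm-1.

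**Figure D3:**
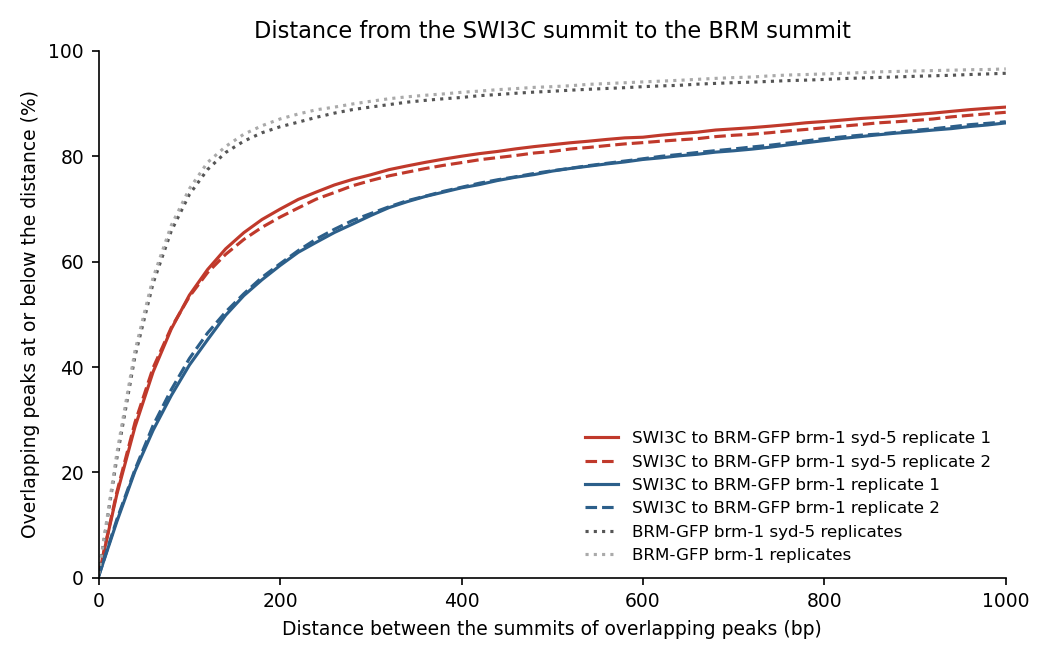
Cumulative share of overlapping peaks (%, vertical) at or below a given distance between summits (bp, horizontal), for SWI3C against each BRM list (red BRM-GFP brm-1 syd-5, blue BRM-GFP brm-1) and between BRM replicates (dotted grey). At 100 bp the red curves stand at 53.6% and 53.4%, the blue ones at 40.4% and 41.6%, and the replicate curves at 72.7% for BRM-GFP brm-1 syd-5 and 73.8% for BRM-GFP brm-1.

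SWI3C summits lay in genes at a lower share than the summits of each BRM list. The summit fell inside a protein-coding gene in 53.0% of SWI3C peaks, against 66.2% and 67.0% for BRM-GFP brm-1 syd-5 and 70.7% and 69.2% for BRM-GFP brm-1. In 14.9% to 20.0% of pairs the BRM summit was inside a gene and the SWI3C summit was not. The opposite arrangement made up 2.08% to 3.44%. Summits of the 11 other lists with organelle peaks were inside genes in 33.4% to 74.7% of peaks, a range that holds both the SWI3C and the BRM values.

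Whether the loss of SYD changes how BRM meets SWI3C was examined by setting the 2 BRM lines against each other. The share of SWI3C peaks overlapped was 85.6% ± 0.635 for BRM-GFP brm-1 syd-5 and 86.2% ± 0.416 for BRM-GFP brm-1 (SD, n = 2 each), a difference of −0.531 points (exact two-sided permutation test, p = 0.667). This difference was within the spread of replicates, and it changed sign to 5.87 points with 50% overlap of both intervals and to 2.06 points with a −log10 q of at least 10. The Jaccard index was 0.437 ± 0.0108 for BRM-GFP brm-1 syd-5 and 0.404 ± 0.00288 for BRM-GFP brm-1. The rank correlation was 0.523 ± 0.00135 for BRM-GFP brm-1 syd-5 and 0.438 ± 0.000906 for BRM-GFP brm-1. The median summit distance was 89 ± 0 bp for BRM-GFP brm-1 syd-5 and 139.75 ± 2.47 bp for BRM-GFP brm-1, a difference of −50.75 bp. For the library labelled SWI3C-GFP the difference in Jaccard index was 0.00196 (exact two-sided permutation p = 1), against 0.0334 here. For these 3 measures of the SWI3C list the lines did not overlap, and each exact two-sided permutation p was 0.333, the smallest that 2 against 2 libraries allow (adjusted 0.444 over 4 tests, Benjamini-Hochberg), so none could pass 0.05. Of the 15 other lists compared, 14 also had a higher Jaccard index with BRM-GFP brm-1 syd-5 than with BRM-GFP brm-1.

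The 5 regions where the lists had their strongest common peaks were at genes, HRA1 and PCO1 among them. Merging the 5 full lists gave 18157 regions, and every list had a peak in 8788 (48.4%). The region with the highest mean rank lay on chromosome 3 at positions 3096077 to 3099117, with its SWI3C summit inside AT3G10040 (HRA1, which dampens the transcriptional response to low oxygen). Its fold enrichment was 8.23 in SWI3C, 17.6 and 20.9 for BRM-GFP brm-1 syd-5 and 17.4 and 17.6 for BRM-GFP brm-1. The BRM summits there lay 25 to 34 bp from that of SWI3C. At AT5G15120 (PCO1, a cysteine oxidase that marks ERF transcription factors for degradation when oxygen is present), on chromosome 5 at 4898349 to 4899973, fold enrichment was 10.02 in SWI3C, 13.5 and 14.6 for BRM-GFP brm-1 syd-5 and 13.7 and 14.4 for BRM-GFP brm-1. The summits of all 4 BRM lists lay 3 to 18 bp from that of SWI3C.

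The other 3 regions of this rank had SWI3C summits inside AT1G57680 (Cand1, a candidate G-protein coupled receptor), AT5G50900 and AT5G55040. The last is BRD13, among the SWI/SNF subunit loci counted below. At AT1G57680, on chromosome 1 at 21363532 to 21365178, fold enrichment was 10.2 in SWI3C, 18.3 and 20.7 for BRM-GFP brm-1 syd-5 and 13.5 and 12.9 for BRM-GFP brm-1. At AT5G50900, on chromosome 5 at 20705776 to 20708111, it was 8.68 in SWI3C, 11.8 and 12.9 for BRM-GFP brm-1 syd-5 and 14.6 and 14.4 for BRM-GFP brm-1. At AT5G55040, on chromosome 5 at 22330729 to 22333572, it was 7.04 in SWI3C, 14.1 and 16.3 for BRM-GFP brm-1 syd-5 and 12.5 and 14.6 for BRM-GFP brm-1. In all 5 regions the SWI3C fold enrichment was below that of every BRM list, and fold enrichment is comparable only within a list.

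BRM regions without SWI3C were mostly weak. Of 11361 merged regions with a peak in all 4 full BRM lists, 2573 (22.6%) held no SWI3C peak. Their median rank among BRM peaks, as a percentile of −log10 q with 100 the strongest, was 35.0, against 68.7 for regions with SWI3C, and their median width was 756 bp against 1345 bp. A single one of the 2573 reached a mean BRM percentile of 90 or more. It lay on chromosome 4 at 10645654 to 10647584, inside AT4G19520, with fold enrichments of 5.80 and 5.99 for BRM-GFP brm-1 syd-5 and 7.60 and 6.37 for BRM-GFP brm-1. The next were at AT5G66050 on chromosome 5 (26413888 to 26415275), with 5.01 and 5.67 for BRM-GFP brm-1 syd-5 and 5.83 and 5.18 for BRM-GFP brm-1, and at TPS10 (AT1G60140, of the trehalose phosphate synthase family) on chromosome 1 (22180124 to 22181227), with 4.99 and 5.07 for BRM-GFP brm-1 syd-5 and 5.14 and 5.24 for BRM-GFP brm-1. The remaining 2 were at AT2G22900 on chromosome 2 (9744052 to 9748078) and 757 bp from AT5G16500 on chromosome 5 (5389828 to 5390453), with BRM fold enrichments of 3.32 to 5.41.

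SWI3C peaks with no peak in any full BRM list numbered 388, or 3.17% of the 12242 (Wilson 95% interval 2.87% to 3.49%). They were found at both ends of the strength scale, with 58 in bin 1, 8 in bin 3 and 90 in bin 10. Against equal-sized BRM lists the number was 803, and with 50% overlap of both intervals it was 4683. For the library labelled SWI3C-GFP it was 1267 against equal-sized lists. Of the 388, 256 (66.0%) overlapped a peak of a SYD-N-GFP syd-5 list, against 97.9% of all SWI3C peaks. A peak of a MINU2-GFP minu2-1 list overlapped 299 of the 388 (77.1%), against 86.8% of all SWI3C peaks. Both overlapped 212 of the 388 and neither 45. In 4 of the 388 no other list of the 26 had a peak. The shares for SYD and MINU2 count a peak in any of 4 full SYD lists or any of 2 full MINU2 lists. The SYD lists hold no organelle peaks, like the BRM lists that define the 388, while the MINU2 lists hold them. Protein and set of lists therefore cannot be told apart in these shares. Chromosome 2 held 122 of the 388, which is 6.38% of its SWI3C peaks, against 2.13% to 3.07% on the other chromosomes. Their summits were inside a gene in 40.5%, against 54.9% for SWI3C peaks with a peak in all 4 BRM lists.

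The strong SWI3C peaks without BRM lay mostly, but not all, in gene-poor DNA. Of the 58 in bin 1, 51 (87.9%) had a peak in each of the 11 other lists with organelle peaks, close to the 1033 of 1167 (88.5%) among bin 1 peaks with BRM. Within 100 kb of them the median number of protein-coding genes was 4, against 54 for the other 330 peaks without BRM and 55 for bin 1 peaks with BRM. A −log10 q of at least 100 was found in 34 of the 58 and in 7 of the 1167 bin 1 peaks with BRM. Median fold enrichment was 4.88 in the 58 and 4.99 in bin 1 peaks with BRM. Among SWI3C peaks of any bin with a −log10 q of at least 10, fold enrichment was under 2.5 in 34 of 103 peaks without BRM (33.0%) and in 28 of 5438 peaks with a BRM peak (0.515%), limits that were chosen after the values had been seen. The part of the low-fold peaks in the share of bin 1 was not tested. Without the 10 SWI3C peaks that recur among the 100 strongest of each other list with organelle peaks, bin 1 exceeded bin 10 by 30.4 points. Those 10 are the highest by −log10 q and all lack BRM, so leaving them out raises the share of bin 1 by construction.

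**Figure D4:**
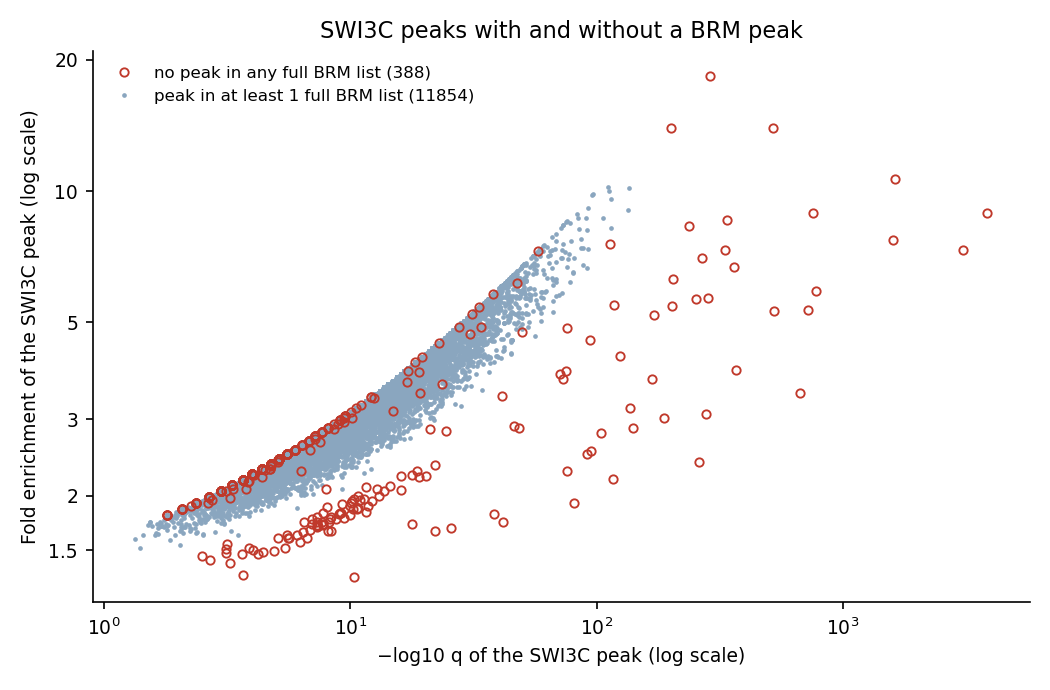
Fold enrichment (vertical, log scale) against −log10 q (horizontal, log scale) of the 12242 SWI3C peaks. Red circles are the 388 peaks with no peak in any full BRM list and blue points the 11854 with at least 1; every peak to the right of the last blue point, at a −log10 q of 135, is a red circle, and 34 red circles lie at a −log10 q of at least 10 with a fold enrichment under 2.5.

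The 5 strongest SWI3C peaks without BRM by −log10 q were on chromosome 3 at 13590230 to 13592480, chromosome 4 at 3952131 to 3953732, chromosome 5 at 11184857 to 11186676, chromosome 2 at 3625648 to 3626483 and chromosome 5 at 11732044 to 11732659. Their −log10 q was 3858, 3084, 1627, 1606 and 782 in that order, and their fold enrichment 8.93, 7.31, 10.7, 7.74 and 5.91. Each had a peak in all 11 other lists with organelle peaks. Of the 10 other lists without organelle peaks, 6, 7, 7, 6 and 0 had a peak there, in the same order. Only the fourth had its summit inside a gene, AT2G08986. The number of protein-coding genes within 100 kb was 3, 3, 7, 10 and 1. The highest fold enrichment of any SWI3C peak, 18.4, was also without BRM, at AT2G16586 on chromosome 2 (7190938 to 7191479). That peak was chosen after its value had been seen, and all 11 other lists with organelle peaks had a peak there, as did 3 of the 10 other lists without them. Within 100 kb of it lay 42 protein-coding genes. Another SWI3C peak without BRM, also chosen after its value had been seen, had 64 such genes within 100 kb. It lay on chromosome 3 at 7104011 to 7104538, with a fold enrichment of 13.95. The peak inside the SWI3C gene itself was among the 388 too. The strongest peaks of the 4 BRM lists within 1 kb of that gene had summits 4781 to 4822 bp from the SWI3C summit, with fold enrichments of 3.28 and 4.67 for BRM-GFP brm-1 syd-5 and 3.14 and 3.10 for BRM-GFP brm-1.

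Genes near SWI3C peaks were mostly genes near BRM peaks. A gene was counted when a peak overlapped it or the 1 kb on either side of it. Of 27432 protein-coding genes, 49.2% had a SWI3C peak, 45.5% a peak of all 4 equal-sized BRM lists, and 39.9% both. Genes with a SWI3C peak and none of any BRM list numbered 612, and genes with all 4 BRM lists and no SWI3C peak 1549. A list of 32 genes reported elsewhere as targets of BRM or SWI3C was chosen for being bound, so its counts are no independent evidence. A SWI3C peak was found at 23 of the 32 (71.9%), peaks of all 4 BRM lists at 20 (62.5%) and both at 19 (59.4%). No gene of the list had SWI3C without any BRM peak.

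The auxin transport genes PIN3, PIN4 and PIN7 were among the targets with strong peaks of both proteins, while PIN2 had weak ones. PIN2, PIN3, PIN4 and PIN7 encode efflux carriers of auxin, and these 4 had a SWI3C peak and a peak in all 4 full BRM lists. At PIN7 fold enrichment was 5.52 in SWI3C, 3.58 and 3.98 for BRM-GFP brm-1 syd-5 and 4.71 and 5.27 for BRM-GFP brm-1. PIN7 ranked at percentile 96.8 among SWI3C peaks, the highest of the 32 genes, and at percentiles 74.8 to 88.2 in the BRM lists. At PIN4 fold enrichment was 4.50 in SWI3C, 4.90 and 5.86 for BRM-GFP brm-1 syd-5 and 5.69 and 5.06 for BRM-GFP brm-1, with summits at most 16 bp apart. PIN2 had the weakest SWI3C peak of these 4, with a fold enrichment of 2.17, and BRM values of 2.32 and 1.84 for BRM-GFP brm-1 syd-5 and 2.29 and 2.53 for BRM-GFP brm-1. The SWI3C peak at PIN2 was at percentile 14.0, and the BRM peaks there at percentiles 6.69 to 38.9.

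Peaks of both proteins were also called at SCL3, GID1A, ABI5 and GA3OX1. SCL3, a GRAS regulator of gibberellin signalling, had a fold enrichment of 4.72 in SWI3C, 5.63 and 5.33 for BRM-GFP brm-1 syd-5 and 5.52 and 4.41 for BRM-GFP brm-1. At GID1A, a gibberellin receptor, it was 4.22 in SWI3C, 5.59 and 5.25 for BRM-GFP brm-1 syd-5 and 4.50 and 5.11 for BRM-GFP brm-1. ABI5, a bZIP factor of the abscisic acid response, had 4.30 in SWI3C, 3.79 and 4.09 for BRM-GFP brm-1 syd-5 and 4.16 and 5.05 for BRM-GFP brm-1. At ABI5 the strongest SWI3C and BRM summits lay 475 to 549 bp apart, against 47 to 84 bp at SCL3. GA3OX1, an enzyme of gibberellin synthesis, stood at 3.15 in SWI3C, with 1.93 and 2.26 for BRM-GFP brm-1 syd-5 and 1.58 and 1.85 for BRM-GFP brm-1. Its SWI3C peak was at percentile 59.1, and its BRM peaks at percentiles 1.13 to 34.1.

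Among flowering genes the pattern was uneven. SVP, a MADS-box repressor of flowering, had a fold enrichment of 3.26 in SWI3C (percentile 65.6), 6.02 and 5.81 for BRM-GFP brm-1 syd-5 and 8.62 and 7.29 for BRM-GFP brm-1 (percentiles 91.4 to 97.9 over the 4 lists). FLC, another repressor of flowering, had 3.68 in SWI3C, 3.14 and 3.19 for BRM-GFP brm-1 syd-5 and 3.27 and 3.01 for BRM-GFP brm-1. At AP3, which specifies petals and stamens, it was 4.21 in SWI3C, 5.07 and 5.42 for BRM-GFP brm-1 syd-5 and 5.73 and 5.06 for BRM-GFP brm-1. No peak of SWI3C or BRM was called at FT, AG, PLT1, PLT2 or GRF6. SPL9 had peaks in all 4 full BRM lists, with fold enrichments of 1.96 and 2.29 for BRM-GFP brm-1 syd-5 and 2.29 and 2.67 for BRM-GFP brm-1, and no SWI3C peak.

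Some genes of the complexes themselves had peaks of both proteins. Of 21 loci of SWI/SNF subunits, 14 (66.7%) had a SWI3C peak, against 49.2% of all protein-coding genes. Peaks of all 4 equal-sized BRM lists were at 11 (52.4%), against 45.5%, and both at 10 (47.6%), against 39.9%. At BRM fold enrichment was 4.86 in SWI3C, 7.61 and 7.94 for BRM-GFP brm-1 syd-5 and 6.89 and 6.58 for BRM-GFP brm-1. At LFR, an armadillo-repeat subunit, it was 3.52 in SWI3C, 3.01 and 3.45 for BRM-GFP brm-1 syd-5 and 3.57 and 3.75 for BRM-GFP brm-1. Those with SWI3C and no BRM peak were SWI3D, a paralogue of SWI3C, with a SWI3C fold enrichment of 2.24, and AT5G17510 with 2.49. SWI3B and the ATPase genes CHR12 (MINU1) and CHR23 (MINU2) had no peak of either protein, and SYD had weak peaks in 3 of the 4 full BRM lists and none in SWI3C.

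The share of SWI3C peaks at BRM was close to that at SYD and far above that at MINU2. To include all subunits, the 8960 strongest peaks of each list were used here, the size of the smallest list compared. BRM lists overlapped 82.8% ± 0.266 of SWI3C peaks (SD, n = 4, both BRM lines pooled). The share was 83.2% ± 1.91 for SYD-N-GFP syd-5 lists (SD, n = 4) and 46.6% ± 0.292 for MINU2-GFP minu2-1 lists (SD, n = 2). The difference between BRM and SYD of −0.474 points was within the spread of the libraries (exact two-sided permutation p = 0.629). The list names of SYD and MINU2 go against the sample labels for 4 of the 6 libraries used.

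Against MINU2 the BRM lists were apart in share, Jaccard index and rank correlation, but the small number of libraries limits the tests. The Jaccard index with SWI3C was 0.389 ± 0.0213 for BRM, 0.424 ± 0.0263 for SYD and 0.253 ± 0.000599 for MINU2. The rank correlation with SWI3C was 0.442 ± 0.0614 for BRM, 0.507 ± 0.00997 for SYD and 0.00639 ± 0.00558 for MINU2. For share, Jaccard index and rank correlation of BRM against MINU2 the exact two-sided permutation p was 0.0667, the smallest that 4 against 2 libraries allow (adjusted 0.107 over 8 tests). Median summit distance from SWI3C was 104 ± 31.3 bp for BRM, 52.6 ± 1.49 bp for SYD and 56.5 ± 0.707 bp for MINU2. The BRM values pool both BRM lines, and the permutations took no account of line. By line the distance was 77 and 77 bp for BRM-GFP brm-1 syd-5, which also carries syd-5, and 134 and 128 bp for BRM-GFP brm-1. The BRM SD therefore holds the gap between lines as well as the spread of replicates. BRM summits were further from SWI3C than SYD summits in all 4 against 4 libraries (exact two-sided permutation p = 0.0286, the smallest possible, adjusted 0.107), which does not pass 0.05 after adjustment. The MINU2 lists belong to the set with organelle peaks, like SWI3C, and the BRM and SYD lists to the set without.

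The Jaccard index of SWI3C was higher with some accessory subunits than with BRM. It was 0.546 with SWP73A-GFP swp73a-2, SWP73A being a subunit of the SWP73 family. With the 3 lists of SWI3D-GFP swi3d-1 it was 0.477 to 0.503. The SWP73A and SWI3D lists all hold organelle peaks. The index was lowest, 0.203, with SWI3A-GFP swi3a-3, SWI3A being another paralogue of SWI3C. Each of these list names states a mutant allele of the tagged gene. List name and sample label conflict for SWP73A, for SWI3A and for the SWI3D lists other than replicate 1. By share of SWI3C peaks overlapped the order was the other way, with 77.4% for SWP73A and 76.8% to 80.5% for SWI3D, against 82.8% for BRM. Median peak widths in this comparison were 480 bp for SWP73A, 605 to 754 bp for SWI3D and 980.5 to 1120 bp for BRM. The part of peak width in the Jaccard index was not tested. Turned round, the share of SWI3C peaks at BRM, 82.8%, was above that of 8 of the 9 other lists with organelle peaks compared, which ranged from 42.5% to 83.6%, and below that of SWP73A. These differences from the accessory subunits were not tested.

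**Figure D5:**
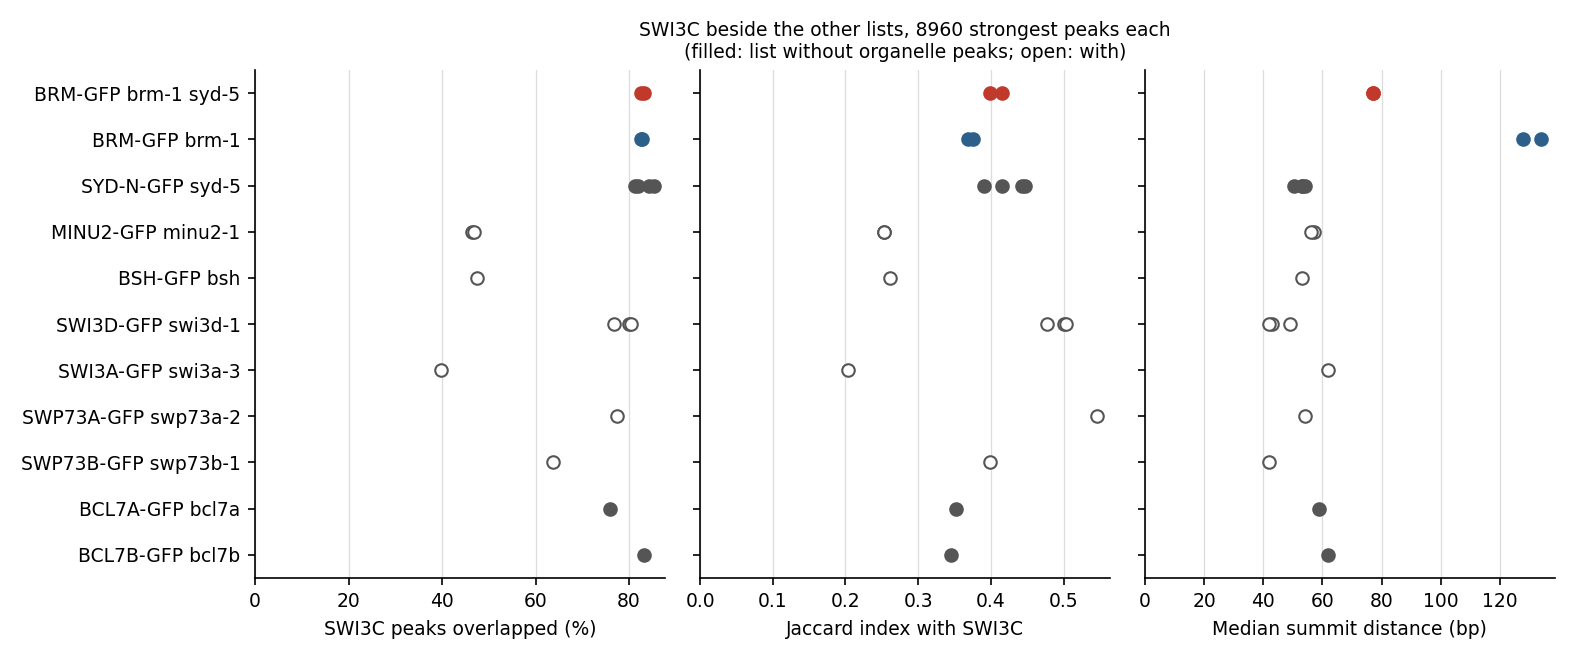
SWI3C beside the other lists, each point 1 list and each row 1 line by list name, at 8960 strongest peaks per list: share of SWI3C peaks overlapped (%, left), Jaccard index (middle) and median summit distance (bp, right). Filled points are lists without organelle peaks and open points lists with them; BRM and SYD lie together in the left panel, MINU2 lies at 46.6%, and BRM summits lie further from SWI3C than those of any other line.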

How the data were processed

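The data are 26 ChIP-seq peak lists of 14-day-old seedlings, 1 per library, in the 10-column narrowPeak layout with no header. Per the submitters' processing notes, fastp, Bowtie2, MACS2 2.0, deepTools and ChIPseeker were used with the TAIR10 genome; their settings and the control of peak calling are not given in the sources used here. In each list the authors deposited fold enrichment as a linear ratio, the significance as −log10 p and −log10 q, a score and the offset of the summit from the start. There were 0 unmapped columns.

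Lines were taken from list names. The members, gene lists and tests were chosen with earlier results of these data known. Peaks on chromosomes 1 to 5 were ranked by −log10 q, cut to equal numbers and overlapped from 1 bp, with Python 3.11.15, numpy 2.4.6, pandas 2.3.3 and scipy 1.17.1. Wilson 95% intervals cover counting error only. Depth is unknown. Libraries of 2 lines were compared by exact two-sided permutation tests with Benjamini-Hochberg adjustment. Overlap and distance functions were checked against simulated lists.

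Named regions are the 5 highest by mean percentile with all 5 lists, the 5 highest with all 4 BRM lists and no SWI3C peak, and the 5 highest by −log10 q with SWI3C and no BRM peak; listed genes follow. Genes come from a RefSeq table of TAIR10.1, which gives no strand, so 1 kb on both sides was used in place of the planned upstream 1 kb. All 32 target genes and 10 of 21 subunits matched a name in it; other subunits are given by locus. Alternatives were full lists, 50% overlap of both intervals, a −log10 q of at least 10, ranking by fold enrichment, 4 bins, the nearest summit anywhere, each BRM library left out, a replicate block and the library labelled SWI3C-GFP. Leaving out recurrent SWI3C peaks was added after seeing the data. Sequences were not used here. The values of 1 listed target gene are not reported here.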

Additional observations from a re-analysis of the deposited data

Results flagged for a closer look

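The SWI3C list held 125 peaks on the mitochondrial and plastid genomes, outside the comparisons above, while each of the 4 BRM lists held none there. Of the 125, 77 were mitochondrial and 48 plastid, together 1.01% of the list. Peaks there occur in 12 of the 26 lists.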

How the results depend on the processing

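Values follow the order SWI3C share at BRM, BRM share at SWI3C, difference between bins 1 and 10 in points, rank correlation, and number of SWI3C peaks without BRM. They were 85.9%, 73.8%, 29.6, 0.480 and 803 as reported. With full lists they were 92.5%, 63.5%, 14.0, 0.514 and 388. With 50% overlap of both intervals they were 44.4%, 44.4%, 36.8, 0.640 and 4683. That rule accepts fewer pairs by construction, which lowers the shares and raises the number without BRM. The bin difference compares shares of all SWI3C peaks in a bin that have an accepted pair. Rank correlation and summit distance were taken over the accepted pairs only. The rule therefore bears on these values too. With a −log10 q of at least 10 they were 76.3%, 69.8%, 37.3, 0.371 and 718. Ranked by fold enrichment they were 85.1%, 73.1%, 27.3, 0.339 and 853. For the library labelled SWI3C-GFP they were 79.2%, 81.3%, 54.1, 0.601 and 1267. With 4 bins the difference was 26.5 points. The mean summit distance of 114.375 bp became 80.5 bp with 50% overlap and 155 bp with the nearest summit anywhere. The mean Jaccard index of 0.4205 became 0.334 with a −log10 q of at least 10 and 0.586 for the library labelled SWI3C-GFP. The cause of these shifts was not tested, except where the rule itself sets it.

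The difference between BRM-GFP brm-1 syd-5 and BRM-GFP brm-1 in share, −0.531 points, changed sign to 5.87 with 50% overlap and to 2.06 with a −log10 q of at least 10; the cause was not tested. The differences in Jaccard index, rank correlation and summit distance kept their direction in all 9, 10 and 10 alternatives run. Several of these alternatives could not have reversed them. The lines did not overlap in these measures, so leaving out a BRM library could not change the sign. The recurrent SWI3C peaks had no BRM peak, so leaving them out could not change rank correlation or summit distance. The difference in Jaccard index shrank to 0.00196 for the library labelled SWI3C-GFP. Leaving out each BRM library in turn gave 85.7% to 86.2% for the SWI3C share, 73.6% to 74.0% for the BRM share, 28.6 to 30.5 points, a rank correlation of 0.466 to 0.495, 888 to 948 peaks without BRM, 105 to 123 bp, a Jaccard index of 0.412 to 0.427 and a line difference of −0.980 to −0.0817 points. Replicate numbers did not pair the libraries: same-numbered BRM libraries deviated together with r = 0.00611 over 11361 regions. With the replicate block the line difference was −0.531 points, as without it.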
